A study of Mus musculus with 3 samples.

Results

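AP-2 and Sall genes encode 2 families of transcription factors, and their signal was followed on arrays of sorted mouse ureteric bud cells. The members are the AP-2 genes Tfap2a, Tfap2b, Tfap2c, Tfap2d and Tfap2e and the Sall genes Sall1, Sall2, Sall3 and Sall4, taken by gene symbol from the platform annotation. All 9 were measured, each by 1 probe set, among 19938 genes with a probe set of their own symbol. They were taken as whole families, with earlier results of these data known. The series is 1 group of 3 arrays, each hybridised with RNA from the sorted cells of 1 ureteric bud of a CD-1 embryo at 10.5 dpc (Theiler stage 18). All embryos carried the transgene Tg(Hoxb7-EGFP)33Cos, in which Hoxb7 regulatory sequence makes duct and bud cells fluoresce green, and there was no untreated, wild-type or other control group. The source is labelled ureteric tip, the buds were not pooled, and the RNA went through 1 round of amplification. The labels do not say whether the buds came from different embryos, so p-values measure the spread between these arrays, and their number limits the precision.

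AP-2 proteins bind DNA as dimers through a helix-span-helix region that the paralogues share, so members present in the same cell can pair with each other. Tfap2a is best known from neural crest, surface ectoderm and face, Tfap2b from neural crest derivatives and the distal nephron, and Tfap2c from trophoblast and primordial germ cells. Sall proteins are zinc finger factors related to Drosophila spalt that recruit the NuRD deacetylase and remodelling complex. Sall1 is known in kidney development from the mesenchyme around the bud, where its loss stops the bud from invading, and Sall4 from pluripotent cells and germ cells.

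The sequence upstream of 4 members is shown because Tfap2b and Tfap2d are neighbours on chromosome 1 with no protein-coding gene between them in the RefSeq gene table, and lay on opposite sides of the background, while Tfap2a is the founding AP-2 gene and Sall1 the Sall gene best known from the kidney. Each line gives the 250 bases before the most upstream start of the RefSeq promoter table (build GRCm38.p6), 5′ to 3′, with matches of ATATT on either strand in capitals. ATATT stands here for the AT-rich letters that Sall4 is known to bind.
Tfap2a (chr13:40734921-40735170, minus strand): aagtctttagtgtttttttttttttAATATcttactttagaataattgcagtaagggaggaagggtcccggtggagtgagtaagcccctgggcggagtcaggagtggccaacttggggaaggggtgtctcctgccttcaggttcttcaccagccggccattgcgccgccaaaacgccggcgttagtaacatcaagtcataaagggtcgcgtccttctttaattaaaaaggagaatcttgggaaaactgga
Tfap2b (chr1:19211804-19212053, plus strand): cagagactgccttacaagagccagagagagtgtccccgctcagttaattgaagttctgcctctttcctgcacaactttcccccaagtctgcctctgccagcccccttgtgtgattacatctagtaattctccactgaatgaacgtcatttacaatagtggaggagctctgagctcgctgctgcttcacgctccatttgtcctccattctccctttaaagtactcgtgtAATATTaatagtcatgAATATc
Tfap2d (chr1:19102772-19103021, plus strand): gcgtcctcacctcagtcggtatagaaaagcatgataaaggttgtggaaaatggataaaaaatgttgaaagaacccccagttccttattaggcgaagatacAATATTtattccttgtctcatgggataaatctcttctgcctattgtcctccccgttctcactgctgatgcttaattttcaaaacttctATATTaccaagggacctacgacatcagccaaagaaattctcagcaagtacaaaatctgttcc
Sall1 (chr8:89044163-89044412, minus strand): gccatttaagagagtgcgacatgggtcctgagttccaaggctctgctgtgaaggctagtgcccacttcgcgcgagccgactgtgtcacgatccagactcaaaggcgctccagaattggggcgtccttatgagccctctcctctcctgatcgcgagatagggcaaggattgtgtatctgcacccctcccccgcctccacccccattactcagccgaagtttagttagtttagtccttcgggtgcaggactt

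The pentamer had 1 match before Tfap2a, 3 before Tfap2b, 3 before Tfap2d and 0 before Sall1, and overlapping matches on the 2 strands, which AATATT gives, count separately. At least 1 match was found in 5 of the 12 windows used for 6 members, some of which overlap. Over all 32851 windows of this length the share was 23.3%. Any member windows on chromosome 18, where Sall3 lies, were left out of the 12, while that chromosome stayed in the 32851. The AP-2 consensus GCCNNNGGC, which reads the same on both strands, was in 0 of these 12 windows and in 13.7% of all windows. A match is a run of letters and not a measured site, and a missing match says only that the letters are not in the window. The windows differed in composition, with 47.6% G or C before Tfap2a, 46.4% before Tfap2b, 39.6% before Tfap2d and 56.4% before Sall1, and a median of 52.4% over all windows.

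Signals are log2 values per probe set as deposited, and the base of the logarithm was inferred from their range. The background of an array was the value that 95% of its 1035 probe sets for olfactory receptors did not exceed (their 95th percentile), with these receptors standing for genes not used in this tissue. It came to 5.40, 5.45 and 5.41 log2 on arrays 1, 2 and 3. A gene was called above background where limma's moderated test of its mean difference from this level, one-sided, gave an adjusted p under 0.05 (Benjamini-Hochberg over all genes), which 53% of all 19938 genes did. Many deposited values repeat exactly. On all 3 arrays 51.7% of genes held 1 identical value (within 1e-06 log2), and another 28.7% did so on exactly 2 arrays. Tfap2b, Tfap2d, Sall1, Sall3 and Sall4 were among the former, so no spread between buds was measured for these 5 genes, and Tfap2c and Sall2 were among the latter. For the 5 identical genes the intervals and p-values come from the 3 background levels and the spread shared by all genes.

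Across both families, 6 of 9 members were above background, 3 of 5 AP-2 genes and 3 of 4 Sall genes, where 53% of all genes were. The same 6 exceeded the level on each of the 3 arrays, by a rule without a model, as 54% of all genes did. The counts were not tested against these shares. The median difference from background was 0.17 log2 over the AP-2 genes and 0.60 over the Sall genes, and 0.22 over all genes.

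**Figure D1:**
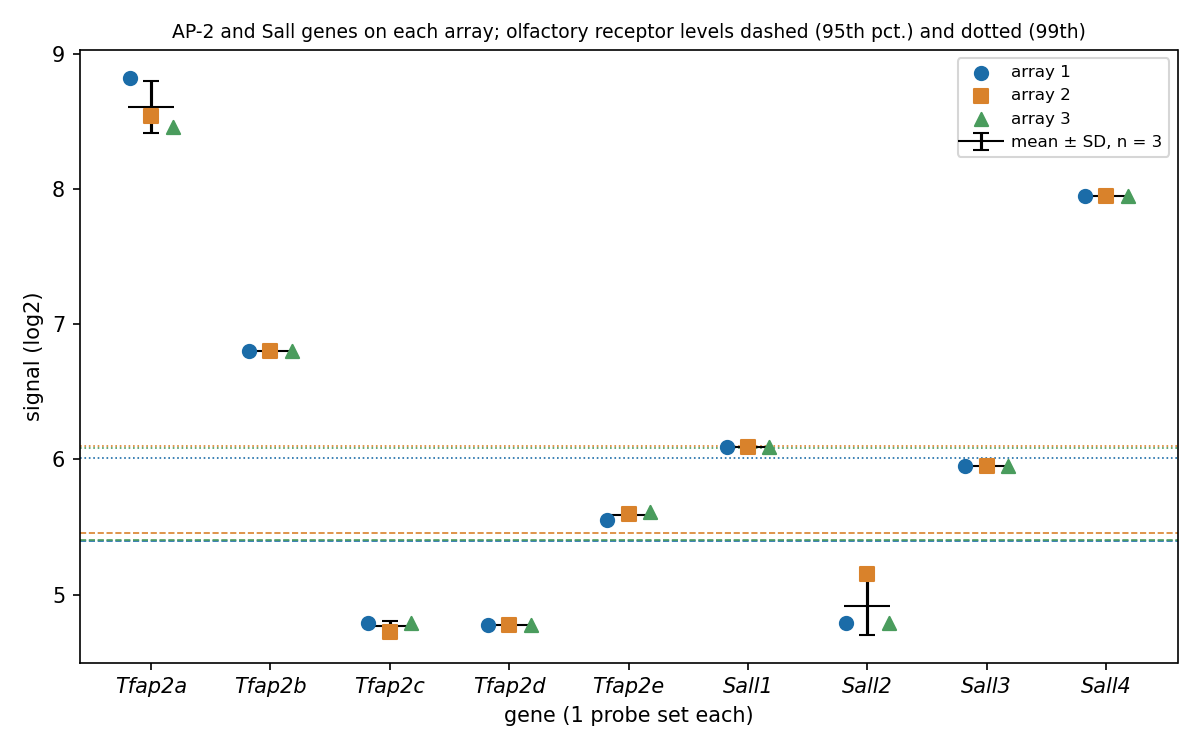
Signal (log2, vertical axis) of the 9 members on each array (points), with the mean ± SD of the 3 arrays (black) and the 95th (dashed) and 99th (dotted) percentile of the olfactory receptors of each array. Tfap2a, Tfap2b and Sall4 sit above both percentiles on every array, Tfap2e lies between them, and Tfap2c, Tfap2d and Sall2 lie below both.

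Tfap2a (probe set 10408798), the founding member of the family, had signals of 8.82, 8.54 and 8.46 log2 on arrays 1, 2 and 3, a mean of 8.61 ± 0.19 (SD, n = 3). It was higher than all 1035 olfactory receptor probe sets on each of the 3 arrays. The mean lay 3.19 log2 above background, with a 95% interval of 2.93 to 3.44 (limma, adjusted p = 1.69e-05). Array 1 was the highest and arrays 2 and 3 lay within 0.1 log2 of each other. The call held under all 14 alternatives, with differences from 1.74 to 3.79 log2.

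Tfap2b (probe set 10345016), whose product pairs with that of Tfap2a, had the same signal of 6.80 log2 on all 3 arrays. It exceeded 1033, 1032 and 1032 of the 1035 olfactory receptors. Its difference from background was 1.38 log2 (95% interval 1.32 to 1.45, limma, adjusted p = 4.22e-06). The call was lost where the Krtap and Defb genes (keratin-associated proteins and defensins, taken as not used here) set the background, at 6.82, 6.91 and 6.87 log2 (difference −0.0635 log2).

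Tfap2e (probe set 10516419), the paralogue known mainly from the olfactory bulb, had signals of 5.55, 5.59 and 5.61 log2. The 3 arrays agree to within 0.06 log2, and each lies only slightly above its background level, by 0.15, 0.14 and 0.20 log2. The signal was higher than 997, 993 and 1000 of the 1035 olfactory receptors, so 35 to 42 receptors taken as not used here were brighter. The difference of 0.17 log2 (95% interval 0.10 to 0.23) passed the test (limma, adjusted p = 0.00308), but not without array 1 (adjusted p = 0.18) or without array 3 (adjusted p = 0.24). It was −0.48 log2 at the 99th percentile. The adjusted p of limma ran from 1.39e-10, with vomeronasal receptors as background, to 1 over the alternatives.

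Tfap2c and Tfap2d were not above background. Tfap2c (probe set 10478997), the paralogue of trophoblast and germ cells, had signals of 4.79, 4.72 and 4.79 log2, with a difference of −0.65 log2 (95% interval −0.75 to −0.55). Tfap2d (probe set 10345007), known from the developing midbrain and retina, had the same signal of 4.78 log2 on all 3 arrays and a difference of −0.64 log2 (95% interval −0.71 to −0.58). Between 853 and 880 of the 1035 olfactory receptors lay below either gene on any array. Neither was called under any alternative, including the lower backgrounds, where both stayed at −0.04 log2 or less. A signal at this level, from 1 probe set for each gene, does not show that no transcript was present.

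The neighbours of these genes on the chromosome did not all share their call. Pkhd1, the gene of the ciliary protein fibrocystin and the next protein-coding gene after Tfap2b, had signals of 5.60, 5.62 and 5.60 log2 and was above background (limma, adjusted p = 0.00133). Bmp7, a growth factor gene next to Tfap2c, was at 7.31 log2 on all 3 arrays and above background (limma, adjusted p = 2e-06), while Tfap2c was not. Defb41, on the other side of Tfap2d, had signals of 3.18, 3.71 and 3.25 log2 and was not above it. Fam209, on the other side of Tfap2c, had signals of 4.34, 4.34 and 4.95 log2 and was not above it either. Of all 15 measured genes that flank a member, 9 were above background, where 53% of all genes were, and the count was not tested against that share.

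**Figure D2:**
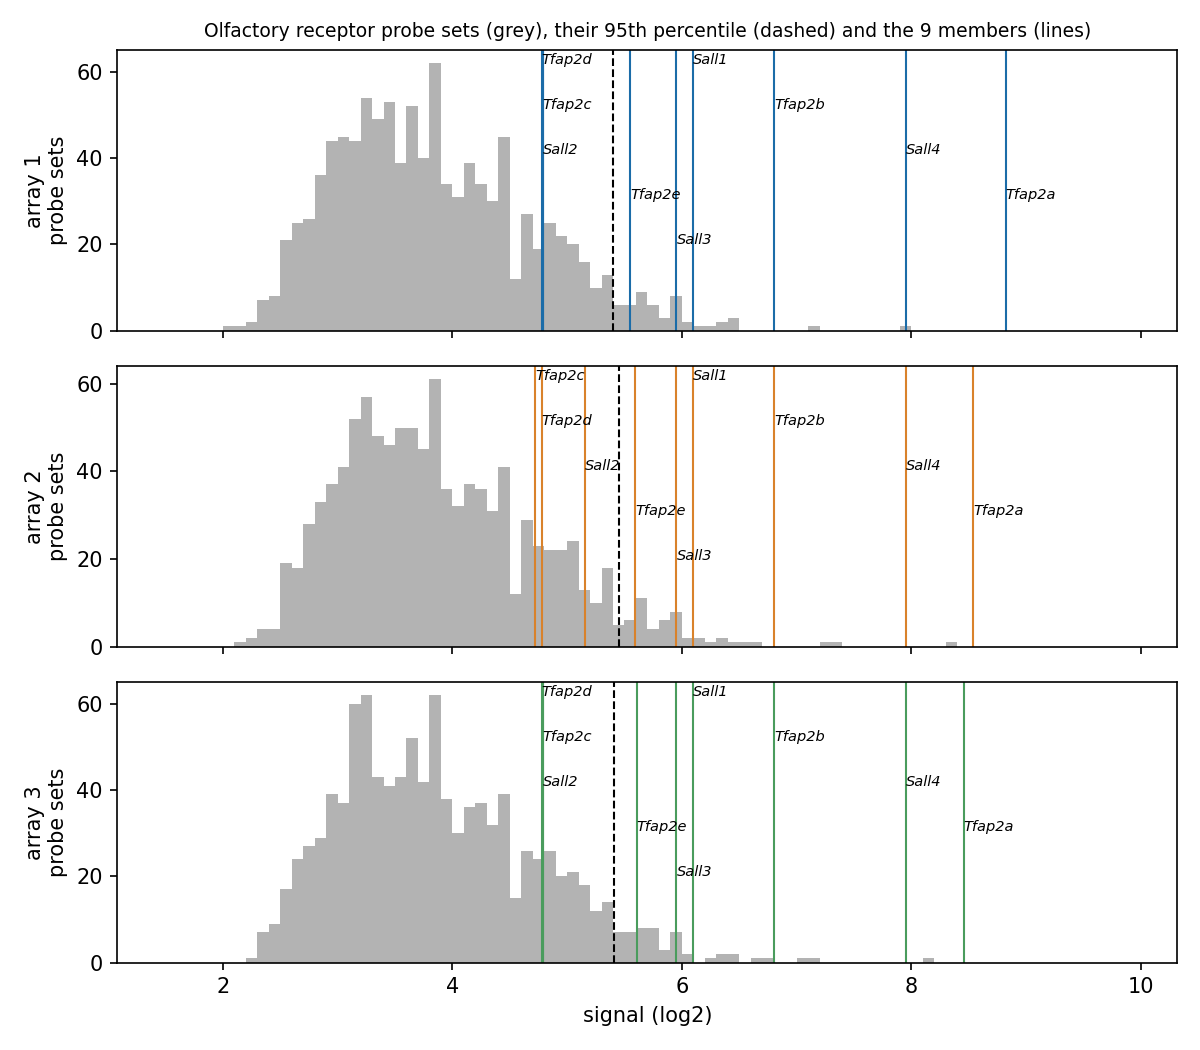
Number of olfactory receptor probe sets (grey bars, vertical axis) by signal (log2, horizontal axis) on each array, with their 95th percentile (dashed) and the signals of the 9 members (coloured lines). Tfap2c, Tfap2d and Sall2 fall inside the upper slope of the receptors, Tfap2e, Sall3 and Sall1 in their thin upper tail, and Tfap2a beyond all 1035 of them.

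Sall4 (probe set 10490016), a factor of pluripotent and early embryonic cells, had the same signal of 7.95 log2 on all 3 arrays. It exceeded 1035, 1034 and 1034 of the 1035 olfactory receptors. The difference from background was 2.53 log2 (95% interval 2.47 to 2.60, limma, adjusted p = 1.11e-06). The call held under all 13 alternatives that could be computed, with differences from 1.09 to 3.13 log2.

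Sall1 (probe set 10580510), the kidney gene mutated in Townes-Brocks syndrome, had the same signal of 6.09 log2 on all 3 arrays. It exceeded 1026, 1024 and 1025 of the 1035 olfactory receptors and lay 0.68 log2 above background (95% interval 0.61 to 0.74, limma, adjusted p = 3.06e-05). At the 99th percentile of the receptors the difference was 0.03 log2 and the call was lost (limma, adjusted p = 0.648). Against the Krtap and Defb genes the difference was −0.77 log2. Over the alternatives the adjusted p of limma ran from 1.84e-26, with vomeronasal receptors as background, to 1.

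Sall3 (probe set 10459999), a close relative of Sall1 with overlapping roles in other tissues, had the same signal of 5.95 log2 on all 3 arrays. It exceeded 1021, 1019 and 1021 of the 1035 receptors and lay 0.53 log2 above background (95% interval 0.47 to 0.60, limma, adjusted p = 6.24e-05). The difference turned to −0.11 log2 at the 99th percentile and to −0.91 against the Krtap and Defb genes, so the call depends on where the background is drawn.

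Sall2 (probe set 10419704), the most divergent of the Sall genes, had signals of 4.79, 5.15 and 4.79 log2. Array 2 was the highest, by 0.36 log2, and arrays 1 and 3 held the same value, all of them below background. The mean of 4.91 ± 0.21 log2 (SD, n = 3) lay 0.51 log2 below the level, and the gene was not called under any alternative. Against vomeronasal receptors, whose level was 4.75, 4.92 and 4.78 log2, the difference turned to 0.09 log2 and did not pass the test (limma, adjusted p = 0.315, with a range of 0.315 to 1 over the alternatives).

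**Figure D3:**
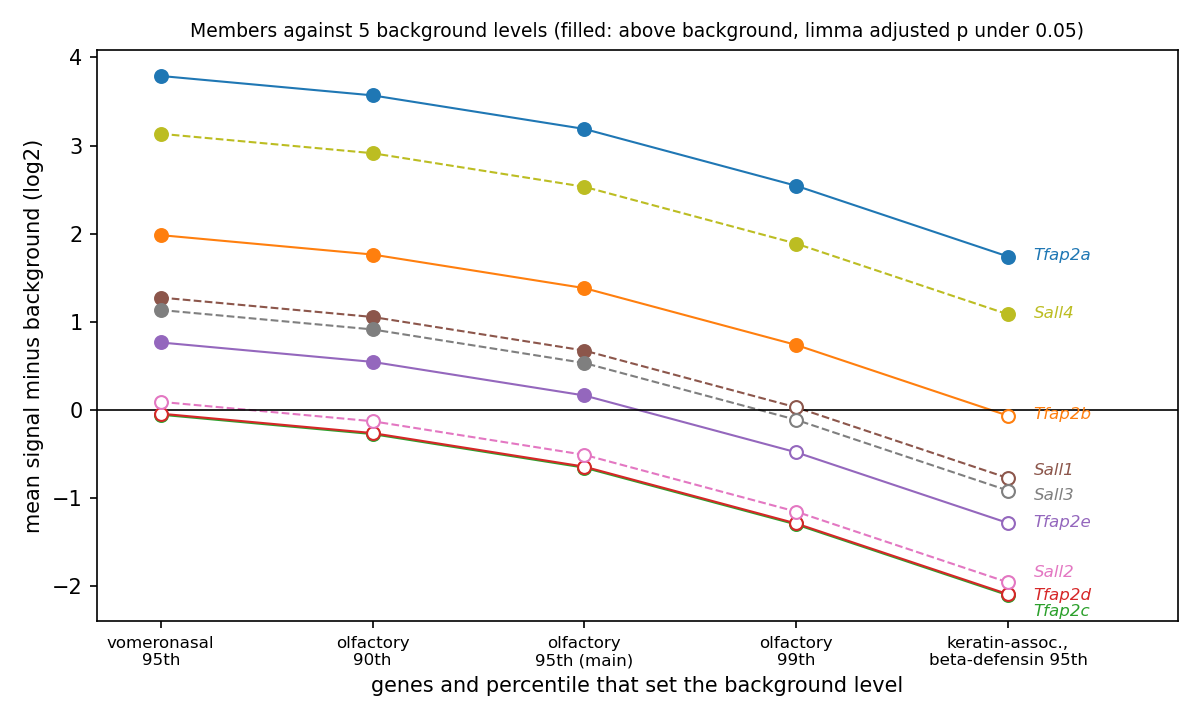
Mean signal minus background (log2, vertical axis) of each member under 5 background levels (horizontal axis), with filled points for calls by limma at an adjusted p under 0.05. Tfap2a and Sall4 stay filled throughout, Tfap2b at all but the highest level, and Tfap2e, Sall1 and Sall3 at the 3 lowest levels.

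Partners of the AP-2 proteins were above background in 8 of 8 measured genes of 9 listed, again against 53% of all genes. Cited2, a coactivator that links AP-2 proteins to the acetyltransferases CBP and p300, had a signal of 8.22 log2, the same on all 3 arrays. Its relative Cited4 was at 5.87 log2, also the same on all 3 arrays, and Cited1 at 7.08, 7.13 and 6.86. Ep300, which encodes p300, was at 8.26 log2 on all 3 arrays. The list also holds Kctd1 and Kctd15, whose products inhibit AP-2 activity and which were singled out once their values had been seen. Kctd1 had signals of 8.19, 8.01 and 8.19 log2, and Kctd15 of 5.90, 5.86 and 5.90. The median difference of the list from background was 2.16 log2. At the 99th percentile 5 of the 8 stayed above background and against the Krtap and Defb genes 4 did. Wwox, also on the list, had signals of 6.18, 5.59 and 5.77 log2 (limma, adjusted p = 0.0392). It lost its call without array 1 and without array 2, which left 7 of 8 each time.

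Subunits of the NuRD complex, which Sall proteins recruit through a short motif at their start, were above background in 13 of 13 genes, and the median difference was 3.05 log2. Chd4, the remodelling ATPase, had signals of 10.58, 10.39 and 10.16 log2. The deacetylase genes Hdac1 and Hdac2 had means of 10.07 ± 0.01 and 11.62 ± 0.04 log2 (SD, n = 3). Mta1, a scaffold subunit, had signals of 7.67, 7.30 and 7.25 log2. All 13 stayed above background at the 99th percentile, and 9 did against the Krtap and Defb genes. NuRD subunits are used in most cell types, with or without Sall proteins.

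All 12 listed genes of the ureteric bud were above background, where 53% of all genes were. The list was chosen with earlier results of these data known. It holds Hoxb7, whose regulatory sequence drives the transgene, so the count is no independent check of the label. Ret, the receptor of the bud tip, had signals of 8.69, 8.35 and 8.18 log2. The duct factor Gata3 was at 9.27, 9.06 and 9.05, and Pax2 at 8.58, 8.15 and 7.92. Calb1, a calcium-binding protein of this epithelium, was at 11.49, 11.52 and 11.38 log2. At the 99th percentile 10 of the 12 stayed above background, without Wnt9b and Wnt11, and against the Krtap and Defb genes 8 did.

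Sall1 is also a gene of the metanephric mesenchyme, of which 4 of 13 measured marker genes were above background. The nephron progenitor factor Six2 had signals of 5.21, 5.21 and 5.18 log2, and Eya1, Gdnf and Osr1 were at 5.36, 5.31 and 4.50 log2, the same on all 3 arrays. None of these 4 genes, the first measured of the list, was above background. Six2, Eya1 and Gdnf were called at the 90th percentile of the receptors and against vomeronasal receptors, where the list had 7 of 13. The genes that were above it are Wt1 (5.60 log2), Crym (6.31) and Uncx (5.64), each the same on all 3 arrays, and Cited1, which also stands in the AP-2 partner list. Wt1 and Uncx lost their calls without array 1 and without array 3, which left 2 of 13, Cited1 and Crym. The same 2 stayed called at the 99th percentile. Against the Krtap and Defb genes 0 were called (limma, 1 with an unadjusted p under 0.05). The summed linear signal of the list ran from 562.9 to 584.7 over the arrays. Of the stroma and other mesenchyme, 4 of 10 genes were above background, namely Col1a1, Col3a1, Twist1 and Prrx1, while Foxd1, Pdgfra, Pdgfrb and Tcf21 were not. At the 99th percentile 2 of the 10 remained, and against the Krtap and Defb genes 0 (limma, 0 with an unadjusted p under 0.05). The summed signal of that list ran from 428.9 to 455.0.

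Tfap2a and Tfap2b are also genes of the neural crest, of which 5 of 7 measured markers were above background. Sox10, a defining factor of crest and glia, was at 6.29 log2 on all 3 arrays, and the receptor gene Erbb3 had signals of 6.87, 6.86 and 6.31. Ngfr (6.05 log2 on all 3 arrays), Ets1 (6.52, 6.22 and 6.52) and Ednrb (7.75, 7.52 and 7.84) were above background as well. The crest factors Foxd3 (5.23 log2) and Snai2 (4.94 log2), each the same on all 3 arrays, were not, though Foxd3 was at the 90th percentile. Against the Krtap and Defb genes Ednrb alone was called. The summed signal of the list was 636.4, 587.2 and 612.6 on arrays 1, 2 and 3, and its part in the signals of Tfap2a and Tfap2b was not tested. In the surface ectoderm list, 2 of 7 genes were above background, Wnt6 at 5.68 log2 and Grhl3 at 5.49. Trp63, Krt5, Krt14, Krt15 and Krt17 were not, with means from 4.08 to 5.27 log2. Krt14 and Krt15 were called at the 90th percentile and against vomeronasal receptors, which gave 4 of 7. Grhl3 lost its call without array 3, which left 1 of 7, and both genes lost theirs without array 1, which left 0 (limma, 1 with an unadjusted p under 0.05). Its summed signal ran from 238.9 to 240.2.

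Sall4 and Tfap2c are used in germ cells and pluripotent cells, and 2 of 14 such markers were above background. These were Kit, a receptor gene, at 8.09 log2 and Nanos3 at 6.06, both the same on all 3 arrays. Pou5f1 had signals of 4.71, 5.07 and 4.66 log2 and Prdm1 of 4.81, 4.25 and 4.86, while Nanog and Dppa3 were at 4.94 and 3.65 log2 on all 3 arrays. None of these 4 was above background. Kit was the 1 gene called at the 99th percentile. The summed signal of the list ran from 599.8 to 602.9. Of the distal nephron genes, a later site of Tfap2b, 1 of 10 was above background, the kinase gene Wnk1, with signals of 7.80, 7.68 and 8.01 log2. Slc12a3, Slc12a1, Umod and Kcnj1, which mark the mature segments, were not. Slc12a3, the sodium-chloride cotransporter gene, lay at the threshold with 5.44 log2 on all 3 arrays (limma, adjusted p = 0.323). It was called without array 2 and at the 90th percentile, which gave 2 of 10, and 3 were called against vomeronasal receptors.

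**Figure D4:**
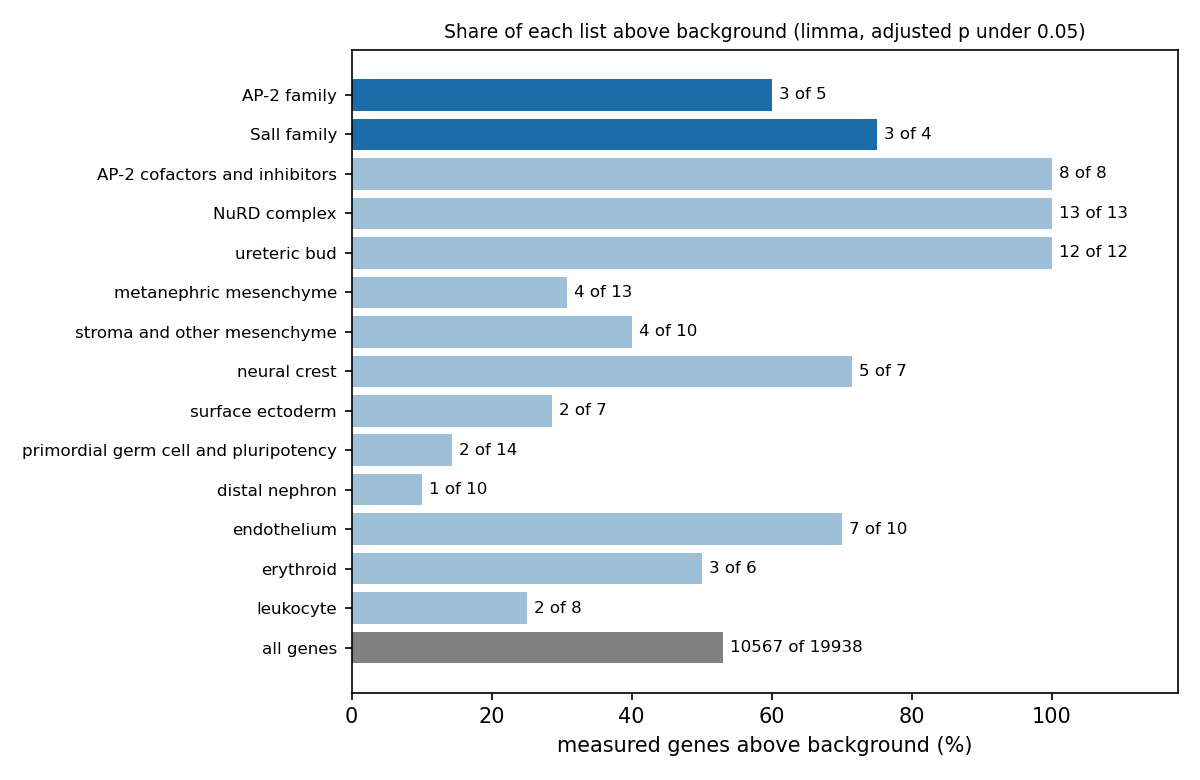
Share of measured genes above background (percent, horizontal axis) in each list and over all genes, with counts beside the bars. The AP-2 partner, NuRD and ureteric bud lists are called throughout, while 2 of 14 germ cell and pluripotency genes and 4 of 13 mesenchyme genes are.

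Between the 3 buds, the 4 members whose values were not identical on all arrays are the ones that could differ. Of these, 0 differed by over 1 log2 between the highest and lowest array, a size that 2.37% of all genes and 4.91% of genes with unequal values reached, and 0 by over 0.5 log2, which 17.4% of the latter reached. With 1 bud an array these differences have no replicate and were not tested. Tfap2a had the widest range, 0.37 log2, followed by Sall2 with 0.36. The SD of Tfap2a, 0.19 log2, compares with a median of 0.12 over genes above background that were not identical on all 3 arrays.

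Tfap2a was highest on array 1 and lowest on array 3, and the same order was seen in 5 of the 10 bud genes that differed between arrays, Ret and Pax2 among them. Over all genes above background that differed, 11.2% had this order and 34.2% were highest on array 1. A gene with equal values on 2 arrays cannot have this order, yet such genes stay in the base of the 11.2%. Over all genes, above background or not, they were 5717 of the 9627 that were not identical on all 3 arrays. Of the 10 bud genes only Wnt9b was such a gene. The bud count and the 11.2% thus rest on unlike shares of genes that cannot have the order. In the NuRD list, whose genes most cell types use, 3 of the 9 that differed had this order and 7 were highest on array 1. Hdac1, Mta3 and Mbd3 had equal values on 2 arrays and could not have the order. Of the 10 bud genes that differed, 8 were highest on array 1. The order was thus not confined to bud genes. The summed signal of the bud list was 7568, 6273.5 and 6038.5 on arrays 1, 2 and 3. The keratin gene Krt8 made up 1742.7, 817.1 and 953.6 of it, and without Krt8 the sums were 5825.3, 5456.4 and 5085. Calb1 was highest on array 2. Fewer bud cells and less RNA per cell cannot be told apart in such samples.

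Vascular and blood genes moved between the buds in another way. In the endothelial list 7 of 10 genes were above background, without Kdr, Esam and Sox17. The count ran from 8 to 10 with an array left out, and was 10 at the 90th percentile, 3 at the 99th and 0 against the Krtap and Defb genes (limma, 2 with an unadjusted p under 0.05). Cdh5, a junction gene of endothelium, had signals of 8.22, 5.89 and 8.07 log2, and Tek, the angiopoietin receptor gene, 6.69, 5.67 and 7.34. The summed signal of the list was 1280.7, 644.1 and 1886.4 on arrays 1, 2 and 3. For erythroid genes, of which Hba-x, Alas2 and Slc4a1 (3 of 6) were above background, it was 933.0, 260.9 and 710.0, and 0 were called at the 99th percentile (limma, 2 with an unadjusted p under 0.05). Without array 1 or without array 3, Alas2 lost its call and Hbb-y gained one. Both lists were lowest on array 2. Of the 4 members that differed between arrays, Tfap2c was lowest on array 2, Tfap2a on array 3 and Tfap2e on array 1, and Sall2 was highest on array 2. The part of vascular and blood RNA in these differences was not tested. Leukocyte genes, of which Cx3cr1 and Cd68 (2 of 8) were above background and Ptprc, Csf1r and Adgre1 were not, had summed signals from 317.5 to 330.2, with 4 called at the 90th percentile.

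**Figure D5:**
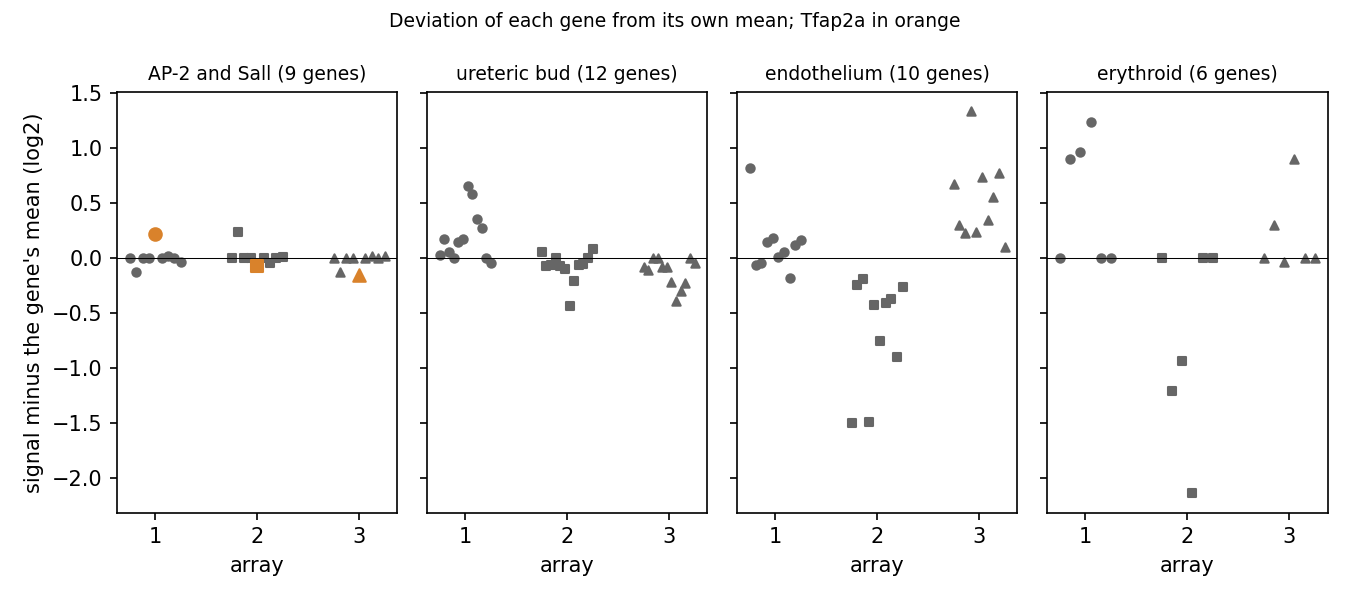
Signal minus the gene's own mean (log2, vertical axis) on each array for the 9 members, 12 bud genes, 10 endothelial genes and 6 erythroid genes, with Tfap2a in orange. The members stay within 0.25 log2 of their means, while endothelial genes and 3 of the 6 erythroid genes lie below theirs on array 2, by up to 2.14 log2.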

How the data were processed

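The table deposited by the authors holds log2 signals, 1 per probe set and array. Per the submitters' processing notes they came from Affymetrix Expression Console. Its version, background correction, normalization and probe summary remain not given in the sources used here. Column medians were 5.47, 5.50 and 5.48 log2. Of 35557 probe sets, the 21789 with 1 symbol in the platform annotation were used, averaged per gene to give 19938 genes; 1621 with several symbols and 12147 with none listed were not.

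limma 3.58.1 (R 4.3.3) fitted signal minus background for every gene, with a one-sided moderated test (prior of 1.71 degrees of freedom, prior SD 0.05 log2). The code was tested on simulated data. Levels of different genes were not tested against each other.

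The rule for naming genes took the members, the first 4 measured of each list, and all called or uncalled ones numbering 5 or fewer. Kctd1, Kctd15, Wwox, Hoxb7, Wnt9b, Wnt11, Krt8, Mta3, Mbd3 and the genes flanking a member were named outside this rule. No member reached the 0.5 log2 range set for a search of like patterns. Members and lists were chosen with earlier results of these data known. Alternatives were other background percentiles or genes (vomeronasal receptors; Krtap and Defb), quantile normalization, the brightest probe set, a filter on the lowest 25%, an SD floor for identical values or their removal, a trended prior, no model, and leaving out each array. Promoters are RefSeq's (GRCm38.p6), with windows used for 6 members and any member windows on chromosome 18 left out.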

Additional observations from a re-analysis of the deposited data

How the results depend on the processing

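Tfap2a and Sall4 stayed above background, and Tfap2c, Tfap2d and Sall2 not above it, under every alternative that could be computed for them, though the difference of Sall2 turned to 0.0935 log2 against vomeronasal receptors (limma, adjusted p = 0.315). Against the Krtap and Defb genes the count fell to 1 AP-2 gene, 1 Sall gene, 24 of the 117 genes of the other lists and 4210 of all genes, and the differences turned to −0.0635 log2 for Tfap2b, −1.28 for Tfap2e, −0.77 for Sall1 and −0.91 for Sall3. At the 99th percentile 1 Sall gene and 7034 genes in all remained called, with differences of −0.48 log2 for Tfap2e and −0.11 for Sall3. With identical probe sets left out, 9627 genes could be tested and 6073 were called, 38 of the other lists among them, and Sall2 was the 1 Sall gene left, so 0 were called (limma, unadjusted p = 0.996, and not by the rule without a model). Tfap2b, Tfap2d, Sall1, Sall3 and Sall4 have no value there. Leaving out array 1, 2 or 3 gave 2 to 3 AP-2 genes, 3 Sall genes and 9666 to 10526 genes in all. No paired analysis was possible because the series has 1 group. Without control tissue, only signal against background could be tested.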

Other observations

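Values that were identical on all 3 arrays often recurred in unrelated probe sets. Of 14486 such probe sets, 12199 (84.2%) shared their value, to 5 decimals, with at least 1 other probe set, while 424 of the 21071 others shared all 3 of theirs. The value of Sall4 recurred in 1 other probe set, that of Tfap2b in 1 and that of Tfap2d in 2, and those of Sall1 and Sall3 in none. The reason for these repeats was not tested, and they were noticed after the values were seen.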
